A study of Homo sapiens with 4 samples.

Results

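The miR-320 family was followed in HepG2 cells, an established human hepatoma cell line, under treatment with berberine, a plant alkaloid. Members were chosen by name, and all 4 names sought, hsa-miR-320a, hsa-miR-320b, hsa-miR-320c and hsa-miR-320d, were among the 851 human miRNAs of the array. The cells received 40 µM berberine chloride, or 0.08% dimethyl sulfoxide as the solvent control, for 2 h or for 4 h before total RNA was isolated. These 4 conditions were hybridised to 1 Agilent miRNA microarray each, in one colour, on the same slide (1 slide, 1 scan). With 1 array per condition the spread between cultures was not measured, and at a single time no test was made. In such a bulk sample, fewer cells holding a miRNA and less of it per cell cannot be told apart.

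Most miRNAs are cut from a long transcript by Drosha, a nuclear enzyme, and are then trimmed by Dicer in the cytoplasm. The miR-320 hairpin is known as an exception: its precursor is formed at the start of its own transcript, carries a cap, leaves the nucleus by the exportin XPO1 and needs Dicer but not Drosha. Mature miRNAs recognise their targets mainly through the seed, bases 2 to 8 from the 5′ end, so paralogues with the same seed are expected to share many targets. Comparing berberine with control in these cells sets the family beside miRNAs made by the usual route and beside other known or candidate exceptions to it.

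The mature sequences of 3 of the 4 members were matched in the RefSeq table of GRCh38.p14 and are shown because their likeness bears on how separately an array can read them. They are written 5′ to 3′ in lower case with the seed in capitals.
hsa-miR-320b: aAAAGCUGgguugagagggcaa
hsa-miR-320c: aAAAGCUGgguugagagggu
hsa-miR-320d: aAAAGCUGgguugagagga
These 3 sequences are 22, 20 and 19 bases long, and they share the seed AAAGCUG. They were identical over their first 18 bases, and hsa-miR-320b and hsa-miR-320c over their first 19, so these 3 differ only at the 3′ end. Each of the 3 comes from more than one gene, 6 in all. MIR320B1 and MIR320B2 lie on chromosome 1, MIR320C1 and MIR320C2 on chromosome 18, MIR320D1 on chromosome 13 and MIR320D2 on chromosome X. In the same assembly MIR320B2 lies within the interval of NVL, MIR320C1 within that of ABHD3 and MIR320C2 within that of OSBPL1A. Because copies of a member give the same mature sequence, a signal could not be assigned to one of them. Among the 2370 mature names of the table the seed AAAGCUG was found in 4, of which 3 were on the array. The table held no sequence for hsa-miR-320a, so its seed was not compared. The remaining name with this seed was hsa-miR-4429. hsa-miR-320e begins like hsa-miR-320b without its first base, so the letters at its bases 2 to 8 are AAGCUGG.
hsa-miR-4429: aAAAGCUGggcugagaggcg
hsa-miR-320e: aAAGCUGGguugagaagg
Neither of these was among the human names of the array.

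All 4 members were detected on all 4 arrays, together with 193 other human miRNAs. The unit was the total signal, a background-subtracted intensity summed over the probes of a miRNA, with the error that the Feature Extraction software assigns to it. For hsa-miR-320a the total signal at 2 h was 128 ± 9.89 in control and 97.0 ± 7.65 with berberine, and at 4 h it was 107 ± 8.48 and 156 ± 12.2. For hsa-miR-320b it was 258 ± 19.3 and 194 ± 14.5 at 2 h, and 226 ± 17.0 and 297 ± 22.3 at 4 h. All of these berberine signals were below control at 2 h and above control at 4 h.
For hsa-miR-320c the total signal at 2 h was 159 ± 14.5 in control and 113 ± 10.68 with berberine, and at 4 h it was 130 ± 12.1 and 180 ± 16.5. For hsa-miR-320d it was 266 ± 20.03 and 190 ± 14.4 at 2 h, and 225 ± 17.0 and 316 ± 23.5 at 4 h. The order of the arrays was thus the same for every member, with berberine at 4 h highest, then control at 2 h, control at 4 h and berberine at 2 h. The brightness of the arrays had that order too. The 75th percentile of the 197 miRNAs detected on every array was 243 in control and 169 with berberine at 2 h, and 225 and 297 at 4 h.

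Each signal was therefore set against the 75th percentile of its own array. On that scale hsa-miR-320a stood at 52.4% in control and 57.3% with berberine at 2 h, and at 47.4% and 52.6% at 4 h. hsa-miR-320b stood at 106% and 115% at 2 h, and at 100.2% and 100% at 4 h. Scaling left both members within a narrow band.
For hsa-miR-320c the scaled signals were 65.5% and 66.8% at 2 h, and 57.8% and 60.6% at 4 h. For hsa-miR-320d they were 109% and 112% at 2 h, and 100% and 106% at 4 h. After scaling, every member was highest on the berberine array at 2 h, while control at 4 h was lowest for hsa-miR-320a, hsa-miR-320c and hsa-miR-320d and berberine at 4 h was lowest for hsa-miR-320b. Over the 6 pairs of arrays of each member, 24 in all, none of the differences passed 1.96 times its standard error (SE), so no 2 neighbours in these orders differed beyond the error of the arrays. The largest, between berberine at 2 h and control at 4 h for hsa-miR-320a, was 0.27 on the log2 scale (SE 0.16). Of all miRNAs, 6.85% to 19.8% passed 1.96 SE in the pairs of arrays compared below. For the remaining pairs, the one of this largest difference among them, that share was not taken. Percentages of different members are not comparable with each other, because each depends on its own probes.
At 4 h the members also served as the yardstick. The 75th percentile was the value of hsa-miR-320d on the control array and of hsa-miR-320b on the berberine array, whereas hsa-miR-26a and hsa-miR-365 held it at 2 h. Taken without the 4 members, the percentile was 239, 164, 215 and 295 in the order control and berberine at 2 h, then at 4 h. This version was chosen after the values were seen, and it gave median log2 ratios of the family of 0.10 at 2 h and 0.02 at 4 h.

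**Figure D1:**
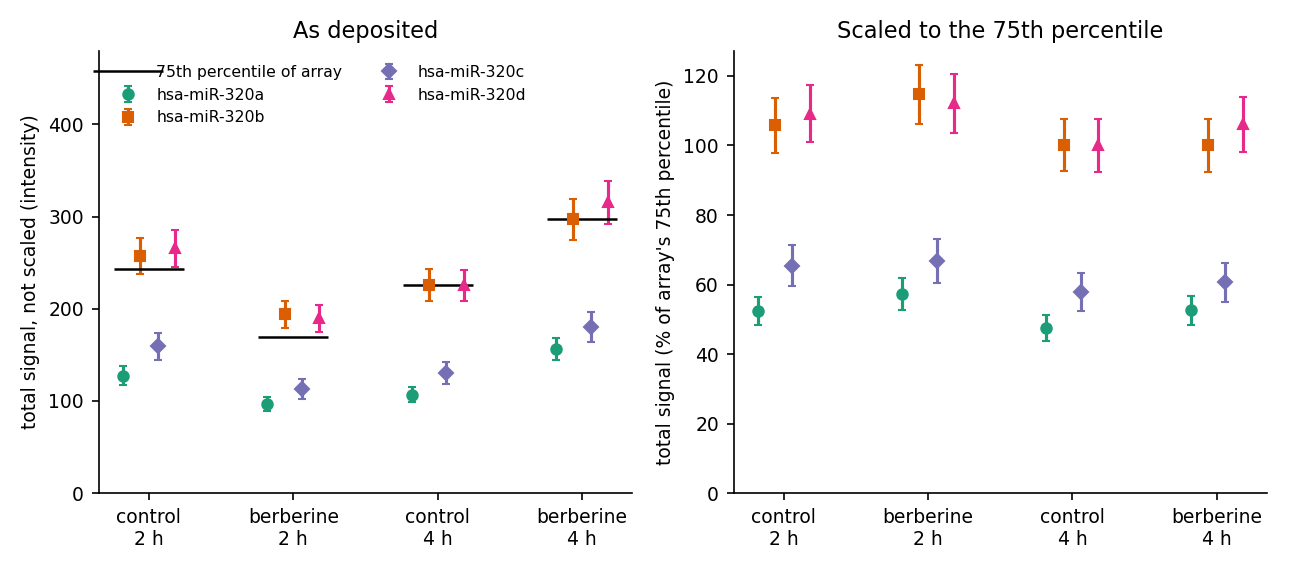
Total signal of the 4 miR-320 members on the 4 arrays, as deposited on the left with the 75th percentile of each array as a black line, and as a percentage of that percentile on the right. Bars are the error of Feature Extraction on 1 array per condition. The unscaled signals followed the brightness of the arrays, from 97.0 to 156 for hsa-miR-320a, and the scaled ones lay between 47.4% and 57.3%.

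The first comparison was berberine against control at 2 h. After scaling, the family differed from control by less than the error of the arrays. The log2 ratio after scaling was 0.13 for hsa-miR-320a (SE 0.16) and 0.12 for hsa-miR-320b (SE 0.15), or 1.09-fold and 1.08-fold. It was 0.03 for hsa-miR-320c (SE 0.19) and 0.04 for hsa-miR-320d (SE 0.15), or 1.02-fold and 1.03-fold. All 4 values were slightly above 0 and within 1.96 SE of it. With normexp, hsa-miR-320c and hsa-miR-320d were below 0 (-0.014 and -0.044), and with no scaling all 4 were. The 95% range of the fold, from the error of the arrays alone, was 0.881 to 1.36 for hsa-miR-320a and 0.788 to 1.32 for hsa-miR-320c, so a change of 2-fold lay outside the range of each, while changes within these ranges could not be told from none.
None of the 4 members passed 2-fold, the boundary used for these arrays in the study, beside 1.02% of the 197 miRNAs with a ratio at 2 h. None passed 1.96 SE, beside 9.14% of all. Their median log2 ratio was 0.08, and that of all 197 was -0.02, with the middle 95% of miRNAs between -0.61 and 0.49. The members lay above that median, at percentiles of 77.2, 76.6, 65.0 and 68.0 for hsa-miR-320a to hsa-miR-320d. With normexp background correction all 4 lay below the median of all miRNAs, which was then 0.16 against 0.02 for the family. Without scaling the members stood at 0.760-fold, 0.753-fold, 0.709-fold and 0.713-fold, beside a berberine array at 0.695 of the brightness of its control. Each of these unscaled values was beyond 1.96 SE below 0 as log2. The share of all miRNAs beyond it without scaling was not taken. The unscaled median of the members was -0.45, where that of all miRNAs was -0.55.

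At 4 h the values were again close to control. The log2 ratio was 0.15 for hsa-miR-320a (SE 0.16) and -0.0027 for hsa-miR-320b (SE 0.15), or 1.11-fold and 0.998-fold. For hsa-miR-320c it was 0.07 (SE 0.19) and for hsa-miR-320d 0.09 (SE 0.15), or 1.05-fold and 1.06-fold. None of the 4 passed 1.96 SE, beside 11.5% of 218 miRNAs with a ratio, and none passed 2-fold, beside 0.917% of them. The 95% ranges of the fold reached from 0.811 for hsa-miR-320b to 1.38 for hsa-miR-320a.
The median of the family was 0.08, against 0.11 for all 218 miRNAs, whose middle 95% lay between -0.62 and 0.72. Here hsa-miR-320a alone lay above the median of all, at a percentile of 59.6, and the other members stood at 29.4, 39.4 and 42.2. With scaling to the median of each array, the log2 ratios of all 4 members at 4 h were below 0, and so was the median of all miRNAs, at -0.06. Normexp put all 4 below 0 too, at -0.042, -0.051, -0.175 and -0.061 for hsa-miR-320a to hsa-miR-320d. The brightest probe put all but hsa-miR-320a (0.062) below 0, and quantile normalization hsa-miR-320b and hsa-miR-320c. The distance of the family from the median of all miRNAs, 0.10 at 2 h and -0.03 at 4 h, is the same under any scaling by one factor per array. With normexp it was -0.14 and 0.18, with the sign turned at both times, and with quantile normalization it was 0.033 and 0.016, with the sign turned at 4 h. Without scaling the members stood at 1.46-fold, 1.32-fold, 1.38-fold and 1.40-fold, beside a berberine array at 1.32 of the brightness of its control. Each of these unscaled values was beyond 1.96 SE above 0 as log2. Here too the share of all miRNAs without scaling was not taken. The unscaled median of the members was 0.48, where that of all miRNAs was 0.51.
For scale, the extreme ratios belonged to other miRNAs. The highest at both times was that of hsa-miR-21*, the passenger arm of the miR-21 hairpin now named miR-21-3p, with log2 ratios of 2.59 at 2 h and 1.68 at 4 h. The lowest were those of hsa-miR-431* at 2 h (-1.45) and hsa-miR-194* at 4 h (-1.32), both passenger arms. When every array summed the same probes, hsa-miR-431* was at 0.40 at 2 h, while hsa-miR-194* stayed at -1.32 at 4 h.

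**Figure D2:**
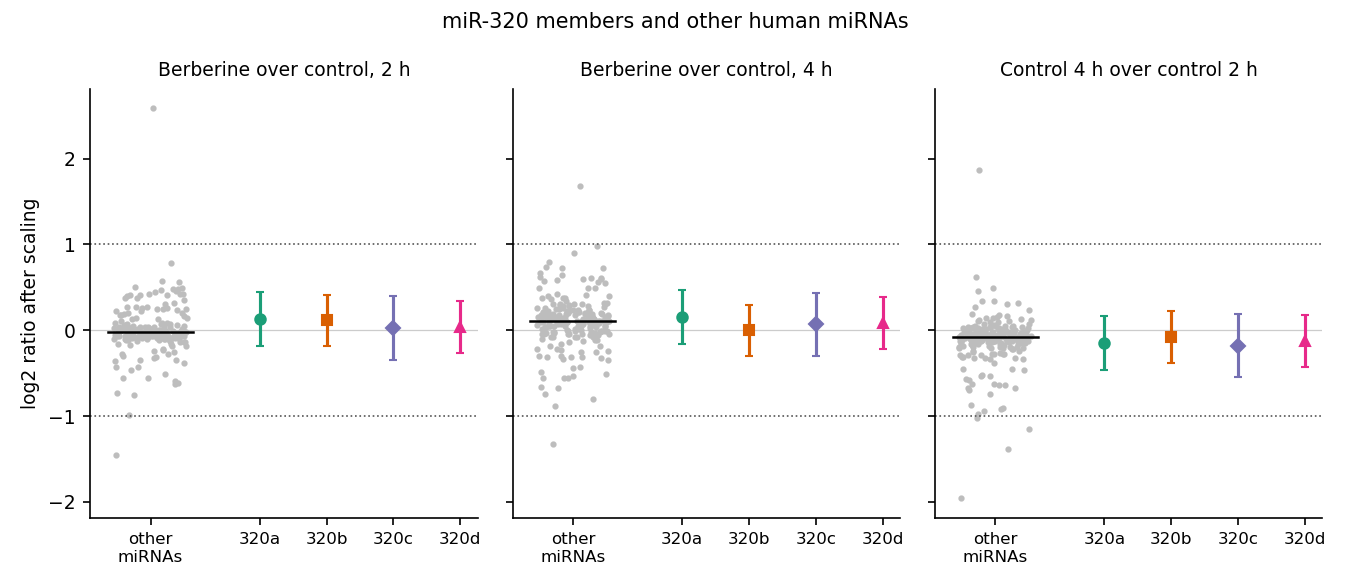
Log2 ratios after scaling for berberine over control at 2 h and at 4 h and for control at 4 h over control at 2 h. Grey points are the other human miRNAs with a ratio, the black line is the median of all, the dotted lines mark 2-fold, and coloured points are the members with their 95% range from the error of the arrays. The ranges of all 4 members include 0 in each panel, and at 2 h their ratios lie between 0.03 and 0.13.

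**Figure D3:**
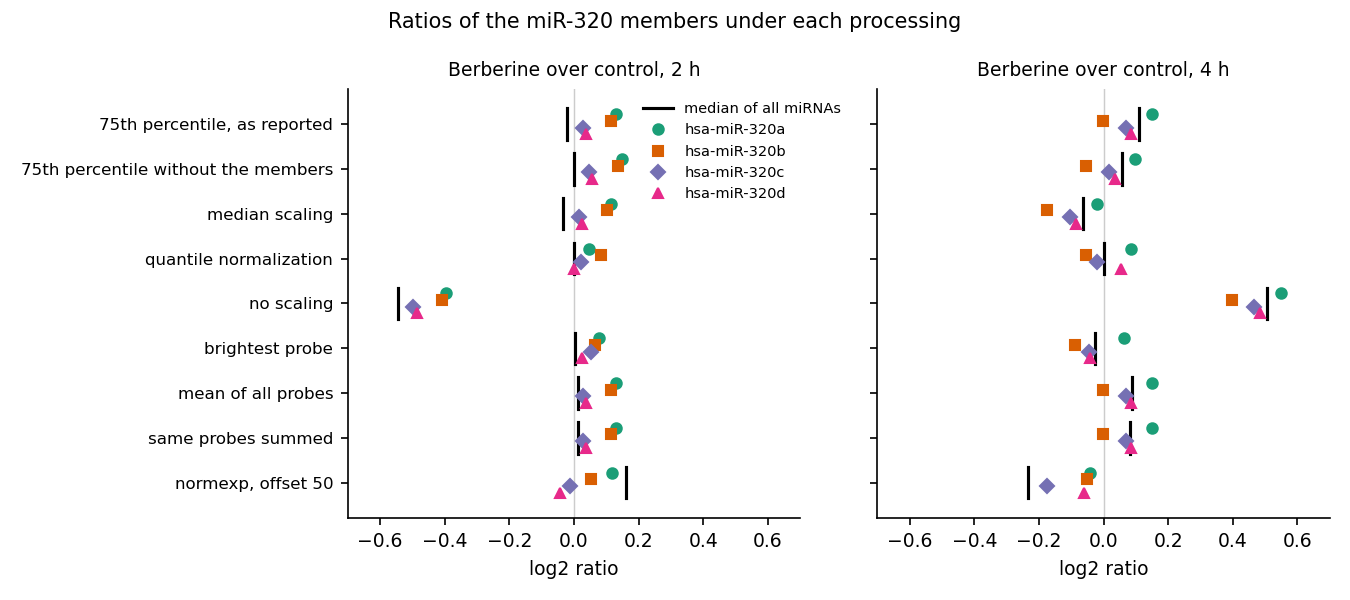
Log2 ratio of each member at 2 h and at 4 h under the processing reported here and 8 others, with the median of all miRNAs as a black line. Scaling to the 75th percentile over all human miRNAs lies outside the panel at 2 h and is not drawn for either time. Without scaling all members are below 0 at 2 h and above 0 at 4 h, and under the other settings drawn they lie between -0.18 and 0.15.

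The control arrays of the 2 times show how far the members differed with no berberine present. The log2 ratio of control at 4 h over control at 2 h was -0.14, -0.08, -0.18 and -0.13 for hsa-miR-320a to hsa-miR-320d, each within 1.96 SE of 0. Their median was -0.14, and that of all 219 miRNAs was -0.08. Passing 1.96 SE were none of the members and 6.85% of all miRNAs. With scaling to the median the 4 values were above 0, with a family median of 0.08. Time and array cannot be told apart in this comparison. Berberine at 4 h over berberine at 2 h gave -0.12, -0.20, -0.14 and -0.08, again within the error, where 19.8% of all miRNAs passed it.
The difference of the berberine ratio between the times, 4 h minus 2 h, was 0.02 for hsa-miR-320a (SE 0.23), 0.04 for hsa-miR-320c (SE 0.27) and 0.05 for hsa-miR-320d (SE 0.22). For hsa-miR-320b it was -0.12 (SE 0.22). None of the 4 differences passed 1.96 SE, and the share of all miRNAs passing it was not taken for this difference.

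The berberine ratios of the members did not differ from one another beyond the error of the arrays. Over the 6 pairs of members, the largest difference between their log2 ratios was 0.10 at 2 h and 0.15 at 4 h, with SEs of 0.22 to 0.25, and none of the 12 passed 1.96 SE. Pairs of other miRNAs were not compared, so no share stands beside this count, and it does not set the family apart. Whether a probe reads its own member alone was not tested, and probe sequences were not used here, so the 4 members may not be separate measurements.

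The array carried 2 probes for each member, with 8 spots each, or 256 spots over the 8 probes and 4 arrays. Of these, 254 were well above background and 0 were saturated. The other 2 belonged to the first probe of hsa-miR-320c on the berberine array at 2 h. Feature Extraction marked 38 spots as outliers, and without them the coefficient of variation among the spots of a probe was 0.537% to 16.0%, with a median of 4.11%. The error that the software gave to a spot was 10.0% to 19.8% on average per probe. It was above the coefficient of variation in 31 of the 32 combinations of probe and array, the exception being the first probe of hsa-miR-320c on the control array at 4 h.
At 2 h, 7 of the 8 probes had a log2 ratio above 0. They ran from -0.26 for the first probe of hsa-miR-320c (SE 0.34) to 0.24 for the first probe of hsa-miR-320a (SE 0.22). At 4 h again 7 were above 0, from -0.04 for the first probe of hsa-miR-320b to 0.17 for the second probe of hsa-miR-320a, both with an SE of 0.21. None passed 1.96 SE at either time. Between the control arrays all 8 probes were below 0, from -0.32 to -0.05. Probes were counted for the members only and under the reported scaling only, so no share over all probes stands beside these counts. The median of all miRNAs on this scale was -0.02 at 2 h, 0.11 at 4 h and -0.08 between the control arrays. Scaling to the median moves all probes of a comparison by the same amount, so these counts depend on the scaling. With it, all 4 members were below 0 at 4 h, from -0.174 to -0.021, and above 0 at 2 h, from 0.015 to 0.116. Between the control arrays they were then above 0, from 0.032 to 0.133.
Spot by spot and without the spots marked as outliers, the scaled ranges of control and berberine overlapped for 6 of the 8 probes at each time. With all spots they overlapped for all 8 at 4 h and, again, for 6 at 2 h, where the same 2 probes were the exceptions. Without the outliers, the exceptions at 2 h were the first probe of hsa-miR-320a, at 34.5% to 35.1% of the percentile with berberine and 29.0% to 31.6% without, and the first probe of hsa-miR-320b, at 73.5% to 81.9% and 65.0% to 71.9%. At 4 h they were the second probe of hsa-miR-320a, at 69.5% to 77.5% and 61.6% to 69.2%, and the second probe of hsa-miR-320d, at 131.2% to 145% and 129% to 131.1%. In these 4 cases the berberine spots were the higher ones on this scale. Before scaling, the berberine spots of both exceptions at 2 h were the lower ones. They lay at 58.3 to 59.3 against 70.6 to 76.9 for hsa-miR-320a, and at 124 to 139 against 158 to 175 for hsa-miR-320b. At 4 h the log2 ratios of hsa-miR-320a and hsa-miR-320d were below 0 with scaling to the median, where spots were not compared. The other probe of the same member overlapped each time, and spots of one array are repeats of one hybridisation, not samples. Ranges were compared for the probes of the members only, so no share over all probes stands beside these counts.

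**Figure D4:**
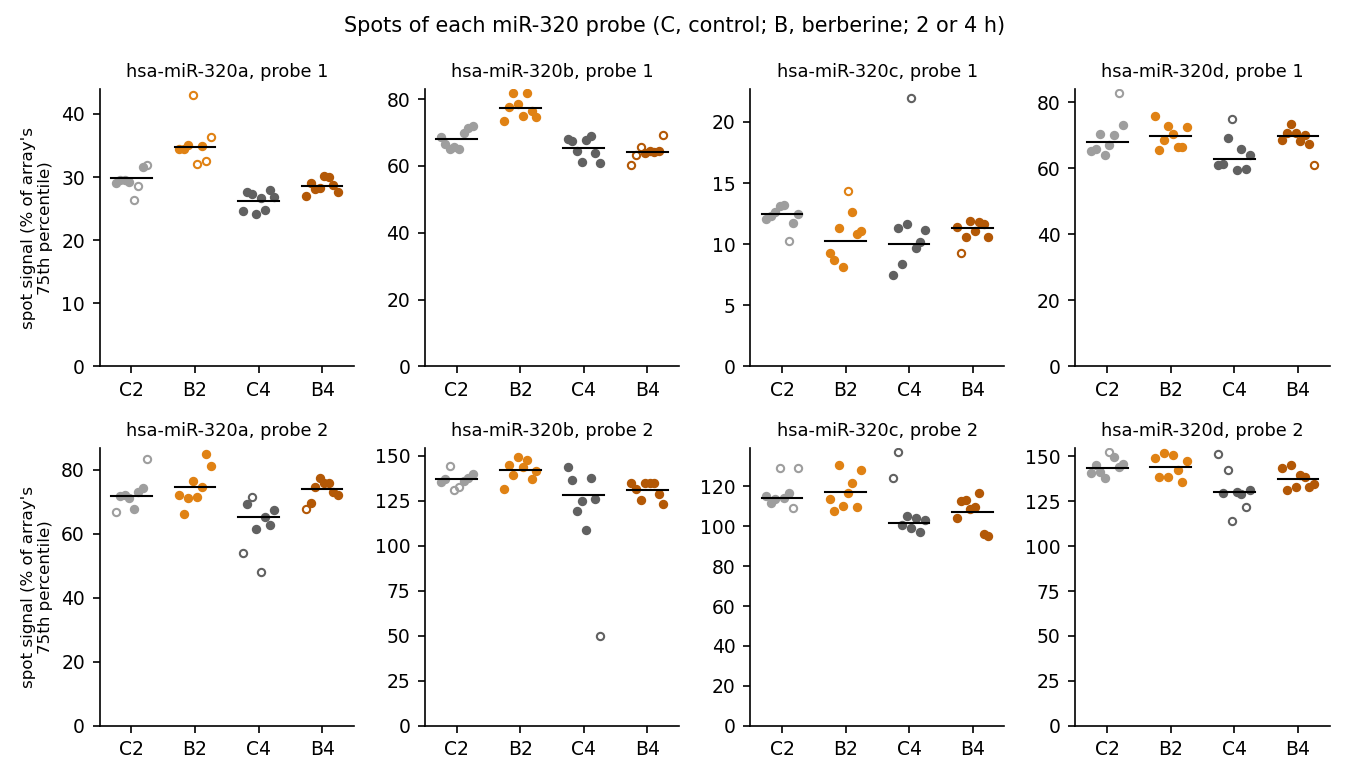
Processed signal of each spot, as a percentage of the 75th percentile of its array, for both probes of each member on the control (C) and berberine (B) arrays at 2 h and 4 h. Open circles are spots marked as outliers, and the line is the mean of the others. With open circles included, control and berberine spots overlap for 6 of the 8 probes at 2 h and for all 8 at 4 h. Other probes of the array were not compared in this way.

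Both times were also fitted together with limma, with treatment and time point as terms, the 2 times taking the place of replicates. The log2 ratio of berberine over control was 0.14 for hsa-miR-320a, 0.06 for hsa-miR-320b, 0.05 for hsa-miR-320c and 0.06 for hsa-miR-320d, each with an SE of 0.21. Its sign turned under 4 of 16 alternatives for hsa-miR-320b, 6 for hsa-miR-320c and 5 for hsa-miR-320d, and under none for hsa-miR-320a. The adjusted p was 0.997 for each of the 4 (limma, Benjamini-Hochberg adjustment over 197 miRNAs). Of all miRNAs 0.508% were called, which is the single miRNA hsa-miR-21*, and 11 of the 15 alternatives that tested it called none. In the fit reported here 9 had an unadjusted p under 0.05, none of them a member. The fit had 1 residual degree of freedom and 54.2 prior degrees of freedom, so its SE was drawn mostly from the other miRNAs. Over 16 alternatives the adjusted p of the members ran from 0.444 to 1.

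The miRNAs whose course over the 4 arrays was most like that of the family were sought among all 197. Likeness was the root mean square difference between scaled log2 signals, each centred on its own mean of the 4 arrays, and the mean course of the members. The nearest other miRNAs were hsa-miR-500* (0.010), hsa-miR-455-5p (0.019), hsa-miR-30e (0.024), hsa-miR-93 (0.028), a member of the miR-106b cluster, and hsa-miR-130a (0.030). Against a median of 0.12 over all miRNAs, the members themselves stood at ranks 3, 4, 8 and 10, for hsa-miR-320d, hsa-miR-320c, hsa-miR-320b and hsa-miR-320a. As near as the farthest member were 6 of 193 other miRNAs, or 3.11%. The members are part of the mean they were set against, so their own ranks are a description only. Which miRNAs came nearest depended on the processing: 4 of these 5 were among the nearest 5 with the brightest probe, 1 with normexp and 0 with quantile normalization, alternatives added after the values were seen.
Member by member, the nearest miRNA was not another member. It was hsa-miR-30e for hsa-miR-320a, hsa-miR-455-5p for hsa-miR-320b and for hsa-miR-320c, and hsa-miR-130a for hsa-miR-320d, and the other members followed at ranks 2 to 24 of 196. The distances ranked here ran from 0.013 to 0.054. They were below the SEs of the members' log2 ratios between arrays, 0.15 to 0.19. So were the distances of the miRNAs named above from the mean course. Whether either order holds beyond this error was not tested. With the brightest probe, the nearest to hsa-miR-320c was hsa-miR-320d, and the nearest to hsa-miR-320d was hsa-miR-320b.

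hsa-miR-484 is another miRNA described as made without Drosha.
hsa-miR-484: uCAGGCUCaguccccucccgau
Its seed, in capitals, is not that of the family, and MIR484 lies on chromosome 16. The total signal was 30.7 ± 2.85 in control and 21.6 ± 2.79 with berberine at 2 h, and 26.4 ± 2.94 and 39.6 ± 3.48 at 4 h. After scaling its log2 ratios were 0.02 at 2 h (SE 0.23) and 0.19 at 4 h (SE 0.20), within the error as for the family. hsa-miR-451, which takes the opposite exception and needs Drosha but not Dicer, was detected on the berberine array at 4 h alone, at 5.31 ± 1.30, and had no ratio.

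Mirtrons are a further class that bypasses Drosha, since splicing frees their hairpin as a short intron. Whether the candidates named below are made in this way was not tested. All 17 names of a list of candidate mirtrons were on the array, and 5 were detected on all 4 arrays, 2 on some and 10 on none. The 5 with ratios had medians of 0.27 at 2 h, where 4 of 5 were above 0, and of -0.08 at 4 h, where 1 of 5 was. The medians of all miRNAs were -0.02 and 0.11. With no scaling, 0 of the 5 were above 0 at 2 h and 3 were at 4 h. The median at 4 h depended on the summary of the probes, at -0.38 with the mean of all probes, -0.48 with the same probes summed, -0.67 with the brightest probe and -0.45 with normexp, each with 0 of 5 above 0 at 4 h and 5 of 5 at 2 h. None passed 2-fold at either time. None passed 1.96 SE at 2 h, beside 9.14% of all, and 1 did at 4 h, beside 11.5%.
The total signal of hsa-miR-1225-5p was 49.6 in control and 38.2 with berberine at 2 h, and 56.8 and 72.8 at 4 h. Its log2 ratios were 0.15 (SE 0.17) and -0.04 (SE 0.16), within the error but outside the members' 0.03 to 0.13 and -0.0027 to 0.15. Between the control arrays, 4 h over 2 h, it was at 0.31 (SE 0.16), where the family median was -0.14. Between the berberine arrays it was at 0.12 (SE 0.17), where the family median was -0.13. hsa-miR-1228 had log2 ratios of 0.27 (SE 0.28) and -0.49 (SE 0.27). hsa-miR-1234 had ratios of 0.49 (SE 0.28) and -0.68 (SE 0.30), the latter being the one beyond the error. Its signals were 16.7, 16.3, 15.7 and 13.0 over the arrays in the order control and berberine at 2 h, then at 4 h. Without scaling its ratios were thus 0.978-fold at 2 h and 0.825-fold at 4 h. The part of array brightness in its scaled ratios was not tested.

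A second list held entries of the array that overlap genes of other small RNAs, such as tRNAs. Of 13 such names 11 were on the array, of which 5 were detected on all arrays, 1 on some and 5 on none. At 2 h all 5 had log2 ratios beyond 1.96 SE above 0, from 0.37 to 0.50 with a median of 0.45, whereas 7.11% of all miRNAs were higher by that measure. At 4 h all 5 were below 0, with a median of -0.23, and 1 passed 1.96 SE, beside 2.75% lower among all. With no scaling these directions turned, to 0 of 5 above 0 at 2 h (median -0.08) and 4 of 5 at 4 h (median 0.17). The directions held with scaling to the median and with normexp. With quantile normalization 2 of 5 were above 0 at 2 h and the others at 0. That method gives the same value to the same rank on every array, so an entry that kept its rank stands at 0 and shows no direction.
The total signal of hsa-miR-720 was 40425 in control and 37658 with berberine at 2 h, and 38321 and 37534 at 4 h. Without scaling its ratios were 0.932-fold and 0.979-fold, so it did not follow the brightness of the arrays as the miR-320 members did. With scaling its log2 ratios were 0.42 (SE 0.16) and -0.43 (SE 0.16). For hsa-miR-1274b they were 0.47 (SE 0.15) and -0.22 (SE 0.15), and for hsa-miR-1274a 0.45 (SE 0.17) and -0.23 (SE 0.17). The part of array brightness in these ratios was not tested.

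**Figure D5:**
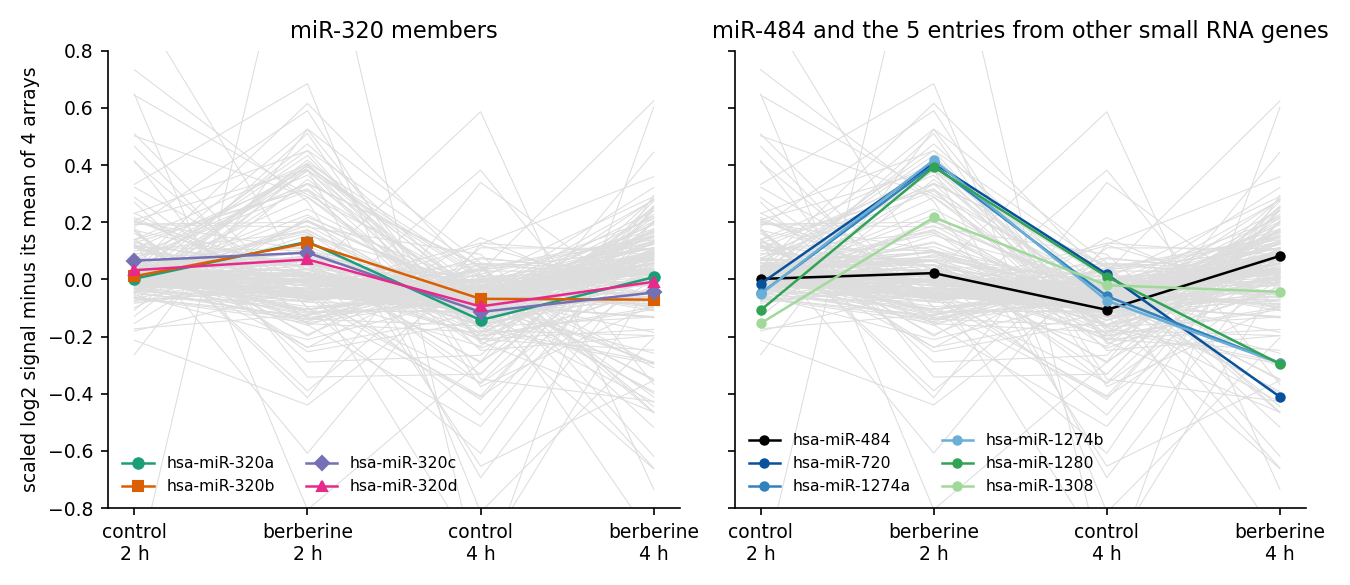
Scaled log2 signal of each miRNA minus its own mean over the 4 arrays, for the miR-320 members on the left and for hsa-miR-484 and 5 entries overlapping other small RNA genes on the right. Grey lines are the 197 miRNAs detected on all arrays, and lines leaving the panel lie beyond 0.8. The members stay between -0.14 and 0.13, and hsa-miR-720 reaches 0.41 on the berberine array at 2 h and -0.41 on that at 4 h.

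The identity of the cells was checked with miRNAs of known tissue preference. All 4 of the hepatic list were detected on every array, among them hsa-miR-192 at 1268, 821, 1069 and 1565 (control and berberine at 2 h, then at 4 h). hsa-miR-122, the defining miRNA of hepatocytes, was at 31.5 in control and 22.4 with berberine at 2 h and at 30.1 and 39.9 at 4 h. The summed signal of the list was 2751 and 1827 at 2 h, and 2290 and 3456 at 4 h, in the same order of arrays as for the miR-320 members. Of 10 markers of blood, muscle, neural and mesenchymal cells 7 were detected on no array, and hsa-miR-142-3p and hsa-miR-143 on the berberine array at 4 h alone, at 6.13 and 3.95. hsa-miR-145 was detected on all 4, at 19.7 to 42.3.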

How the data were processed

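For each array the authors deposited the output of Feature Extraction 10.7.3.1: background-subtracted intensities of spots, probes and miRNAs, with errors and detection flags, not scaled between arrays. A second deposited table holds the authors' own ratios of berberine over control and was not used. Members and lists were chosen with earlier results of these data known.

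Each total signal, as log2, was set against the 75th percentile of those 197 human miRNAs that every array detected. Ratios needed detection on both arrays. SEs were propagated from the errors of Feature Extraction, and 95% ranges are 1.96 SE. These cover an array, not cultures. A model with terms for treatment and time point was fitted in limma 3.58.1 (R 4.3.3, Benjamini-Hochberg threshold 0.05), and the script was tested on simulated data. Named miRNAs were the members, the 5 nearest profiles, hsa-miR-484, hsa-miR-451, up to 3 of each list by mean signal and the extreme ratios. Mature sequences came from RefSeq (GRCh38.p14), and array annotation names hg18, so no coordinates are given. Other scalings, probe summaries, background correction (normexp, offset 50), filters and limma settings were tried. Python 3.11.15, numpy 2.4.6, pandas 2.3.3 and matplotlib 3.10.9 were used.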

Additional observations from a re-analysis of the deposited data

Results flagged for a closer look

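For hsa-miR-320b the log2 ratio of berberine over control was on opposite sides of 0 at the 2 times, at 0.12 at 2 h and -0.0027 at 4 h. The difference of -0.12 (SE 0.22) was not tested, since there was 1 array per condition, and it lay within the error of the arrays. At 4 h the 75th percentile of the berberine array was the signal of hsa-miR-320b itself.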

How the results depend on the processing

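With 1 array per condition, the error between cultures is unknown. With 1 array in each group there were no replicate numbers to pair by, and limma paired berberine with control by time point. The alternative of the authors' table was not run, since it holds their own comparison, and the percentile without the members was added after the data were seen. The family median was 5.18 at 2 h and -0.33 at 4 h when the 75th percentile took in undetected miRNAs too, where all 4 members passed 2-fold at 2 h, and -0.45 and 0.48 with no scaling. Under the other 8 settings it lay at 0.02 to 0.10 (2 h) and at -0.09 to 0.08 (4 h), and no member passed 2-fold. On the berberine array at 2 h that wider percentile fell on the value of 0.1 written for undetected miRNAs. It also turned the ratios of control at 4 h over 2 h to 0.36, 0.42, 0.32 and 0.38 for hsa-miR-320a to hsa-miR-320d. limma called 1 miRNA, and 0 without the time point, with above-median signals alone, with the percentile without the members, over all human miRNAs or with median, quantile or no scaling, with the brightest probe or with normexp. With the mean of all probes it called 2, hsa-miR-21* and hsa-miR-194*. Leaving out 1 array at a time, fitted without the time point and with the lone array of an arm assumed to vary like the others, it called 0 to 1. It called 0 without either control array or without berberine at 2 h. The above-median signals leave out hsa-miR-21* itself. Its log2 ratio was above 0 under every other scaling, probe summary and background correction, at 1.33 to 2.61 at 2 h, or 7.69 with the percentile over all human miRNAs, and at 0.47 (normexp) to 2.08 at 4 h.

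In limma the log2 ratio of hsa-miR-320a kept its sign under all 16 alternatives. That of hsa-miR-320b was -0.036 with median scaling, -0.0063 with no scaling and -0.012 with the brightest probe, and -0.042 to 0.16 when 1 array was left out. That of hsa-miR-320c was -0.044 with median, -0.015 with no and -0.00034 with quantile scaling, -0.094 with normexp, and -0.042 to 0.14 when 1 array was left out. That of hsa-miR-320d was -0.030 with median and -0.0010 with no scaling, -0.0095 with the brightest probe, -0.052 with normexp, and -0.0014 to 0.13 when 1 array was left out. The cause was not tested. Of the 5 miRNAs nearest to the family, 5 were kept with the same probes summed, 4 with the brightest probe, 1 with normexp and 0 with quantile normalization. Scaling by 1 factor per array cannot change them.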
